A study of Mus musculus with 3 samples.

Results

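The genes described here encode enzymes that metabolise foreign compounds, retinoids, steroids and reactive aldehydes in mouse endosteal cells. They were chosen by name alone, as every gene of the array whose single symbol belongs to the cytochrome P450 (Cyp), aldehyde dehydrogenase (Aldh), alcohol dehydrogenase (Adh), glutathione S-transferase (Gst), UDP-glucuronosyltransferase (Ugt), flavin monooxygenase (Fmo), aldo-keto reductase (Akr) or epoxide hydrolase (Ephx) families. The rule found 154 of the 18193 named genes, in 8 families. The Cyp family supplied 73 of them, the Aldh and Gst families 20 each, the Akr family 15, the Ugt family 11, the Adh family 7, and the Ephx and Fmo families 4 each.

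Such enzymes are usually described in the liver, where P450s, flavin monooxygenases and dehydrogenases oxidise a compound and transferases then attach glutathione or a sugar acid to it. Several also make or destroy signals. Alcohol and aldehyde dehydrogenases turn retinol by way of retinal into retinoic acid, which regulates the growth and maturation of skeletal and blood-forming cells, and Cyp26 enzymes degrade it. Other P450s make sterols, activate vitamin D or hydroxylate steroid hormones.

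The cells were taken from collagenase-treated femur and tibia fragments of C57BL/6 mice and were depleted of CD45+, CD31+ and Ter119+ (blood, endothelial and erythroid) cells before sorting. The study compared 3 sorted populations, called here ALCAM+ (ALCAM positive, Sca-1 negative), Sca-1+ (ALCAM negative, Sca-1 positive) and double-negative (negative for both). RNA of each was hybridised to its own array of 45101 probe sets, so there is 1 array per population, no spread between replicates and no test between populations. The number of animals, their age and sex, and any pooling are not given in the sources used here. Values are signals on a linear scale, and 3 signals given in a row are those of ALCAM+, Sca-1+ and double-negative cells, in that order. A signal at or below 75.4, the median over all non-control probe sets of the 3 arrays, was treated as not measured and raised to that floor. "Higher" and "lower" below mean a difference of at least 4-fold after that step, and "at least" before a fold means that the dimmer signal lay at or below the floor. Signals of different genes come from different probes and cannot be ranked against each other.

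The 2% trimmed mean was 500 on every array, and 49.7%, 48.9% and 51.4% of the non-control probe sets lay above the floor in ALCAM+, Sca-1+ and double-negative cells. Alcam gave 268, 41.1 and 36.3 in that order, and no probe set named Ly6a (Sca-1) alone was analysed here. Ptprc (CD45) gave 11.6, 163 and 159, and Pecam1 (CD31) lay below the floor on all 3 arrays. Markers of cell types moved with the populations. All 9 fibroblast and mesenchymal progenitor markers were higher in Sca-1+ than in double-negative cells. Their summed signal was 5677 in ALCAM+, 97862 in Sca-1+ and 2549 in double-negative cells. Pdgfra gave 5122 of the ALCAM+ sum. With signals raised to the floor, ALCAM+ was above double-negative cells for 1 of the 9 and below them for 4. Of 11 neutrophil markers, 6 were higher and 3 lower in Sca-1+ than in double-negative cells, with sums of 477, 16785 and 3681, and Elane below the floor in Sca-1+ cells. The sums of 10 erythroid markers were 1735, 693 and 24877, and those of 11 cell cycle genes 3752, 3109 and 31806. Chondrocyte markers summed to 242129 in ALCAM+, 30829 in Sca-1+ and 225449 in double-negative cells, and osteoblast markers to 145597, 9976 and 46628. Of the 2 sums in Sca-1+ cells, Comp gave 25933 of the former and Col1a1 7959 of the latter. Lower in Sca-1+ than in double-negative cells were 9 of 10 chondrocyte and 3 of 7 osteoblast markers. None of 10 hepatocyte markers lay above the floor in ALCAM+ or Sca-1+ cells, and 1 (Apoa2, 103) did in double-negative cells. Of 10 endothelial markers, 3, 2 and 2 lay above the floor, with sums of 752, 1044 and 813. Among 7 adipocyte markers the sums were 340, 8137 and 1004, of which Lpl gave 7558 in Sca-1+ cells, and Adipoq, Lep and Cidec were below the floor there. Macrophage markers (10) summed to 1547, 1930.5 and 1415 and muscle markers (9) to 1008.5, 451 and 1521. The part of these cell types in the enzyme results was not tested.

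Of the 154 enzyme genes, 74 were measured, that is above the floor on at least 1 array, and 49 were above it on all 3. By population, 54 were above the floor in ALCAM+, 65 in Sca-1+ and 63 in double-negative cells. The other 80 lay at or below it on all 3 arrays, with a highest signal of 72.9. At least 4-fold differences in 1 or more of the 3 comparisons were found for 26 genes. That count over any comparison was not made for all named genes, which are set beside the enzyme genes by comparison below.

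Differences ran mostly towards Sca-1+ cells. Against double-negative cells, 17 enzyme genes (11%) were higher in Sca-1+ cells and 3 (1.95%) lower, where 3.79% and 3.27% of all named genes were. ALCAM+ against Sca-1+ cells gave 2 higher (1.3%) and 19 lower (12.3%), beside 2.77% and 4.07% of all named genes. Between ALCAM+ and double-negative cells 2 genes (1.3%) were higher in ALCAM+ cells and 3 (1.95%) lower, against backgrounds of 1.4% and 1.86%, so the share of enzyme genes apart was close to that of all genes. The comparison of Sca-1+ with double-negative cells gives 22 higher and 1 lower if arrays are scaled on either set of spike-in controls, beside 956 higher (5.25%) and 513 lower (2.82%) of all named genes on the poly-A controls. The median log2 difference of the 74 measured genes was 0.33 for Sca-1+ minus double-negative, -0.63 for ALCAM+ minus Sca-1+ and -0.20 for ALCAM+ minus double-negative, where the medians over the 12643 measured genes of the array were 0.00, -0.01 and -0.03. Over all 154 enzyme genes the 3 medians were 0, as they were over all named genes. The 3 comparisons share arrays, and the last of them follows from the other two. In such sorted bulk RNA, fewer cells of a type that makes a transcript and less of it per cell cannot be told apart.

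**Figure D1:**
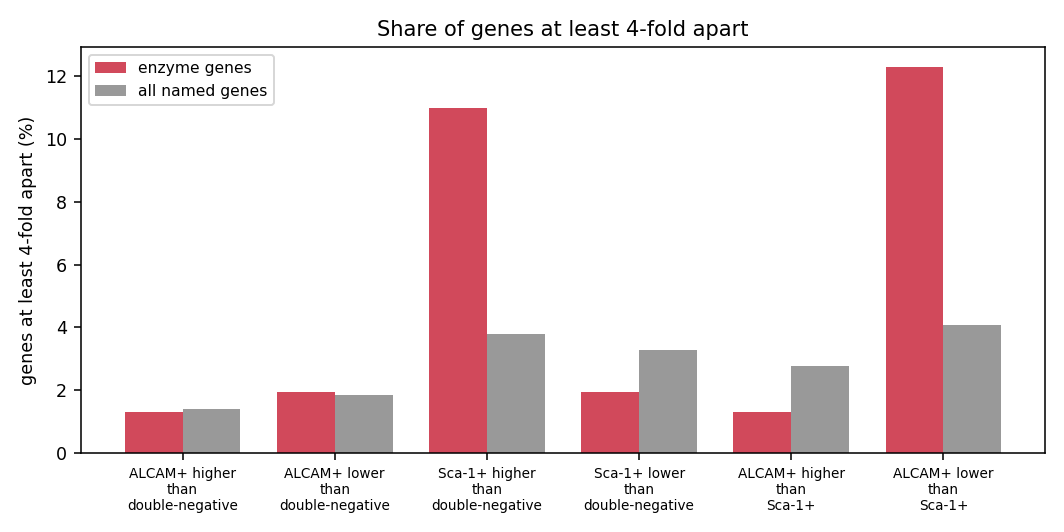
Percentage of genes at least 4-fold higher or lower in each comparison of 2 populations (vertical axis, %), for the 154 enzyme genes (red bars) and all 18193 named genes (grey bars), 1 array per population. The enzyme bars stand above the grey ones where Sca-1+ is the higher population (11% against 3.79%, and 12.3% against 4.07%) and near or below them elsewhere.

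Against both other populations at once, 15 enzyme genes (9.74%; 2.8% of all named genes) were higher in Sca-1+ cells: Adh7, Akr1b8, Aldh1a2, Cyp1b1, Cyp27a1, Cyp2d22, Cyp2f2, Cyp4v3, Ephx1, Fmo1, Fmo2, Gsta4, Gstm1, Gstt1 and Gstt3. All families with a measured gene gave at least 1 of them. Only Aldh1a3 was that far above both others in ALCAM+ cells (0.649%; 0.759% of all genes), and only Aldh1a7 in double-negative cells (0.649%; 1.13% of all genes). The count of 15 was 7 with the floor at the 75th percentile of signals, a setting for which the share of all named genes was not computed. Regardless of size, the brightest population was Sca-1+ for 43 of the 74 measured genes (58.1%; 38.7% of all measured genes), double-negative for 21 (28.4%; 33.2%) and ALCAM+ for 10 (13.5%; 28.1%).

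**Figure D2:**
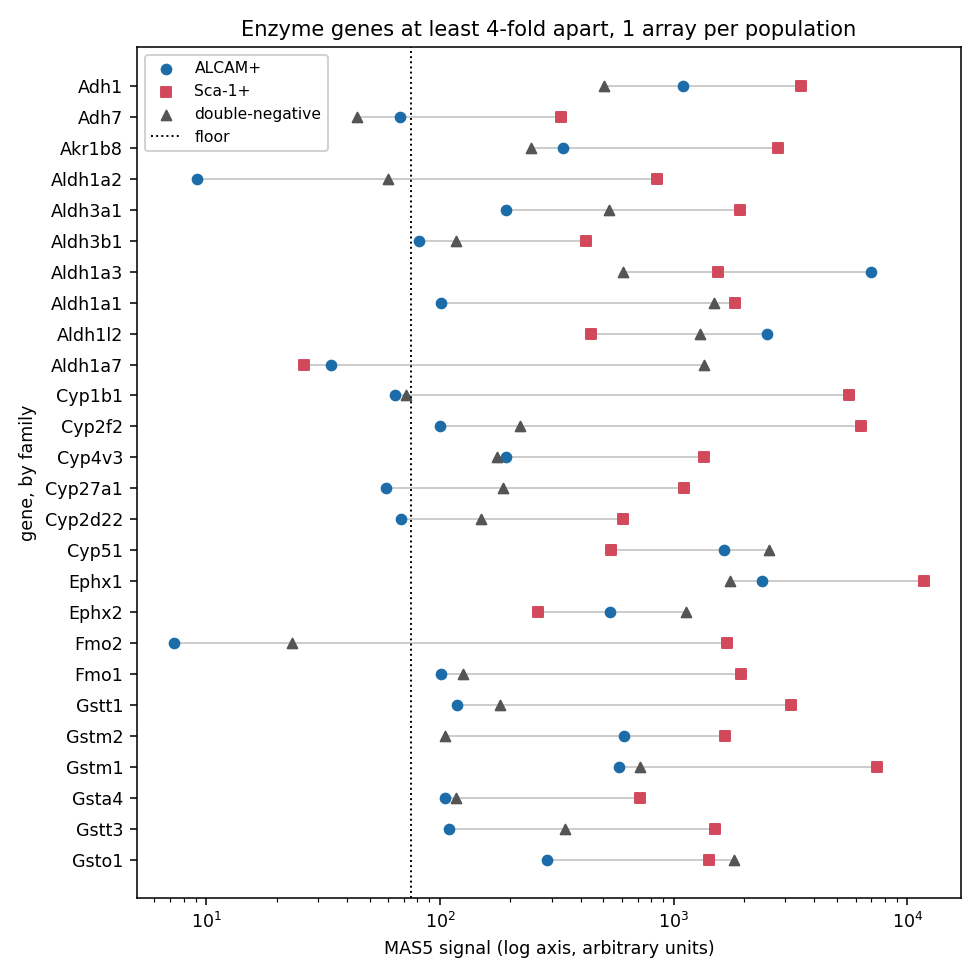
Signals (horizontal log axis, arbitrary units) of the 26 enzyme genes at least 4-fold apart in any comparison, grouped by family, in ALCAM+ (blue circles), Sca-1+ (red squares) and double-negative cells (grey triangles). Each mark is 1 array, and the dotted line is the floor of 75.4. The red square is the rightmost mark for 20 of the 26 genes, 15 of them at least 4-fold above both other marks, the grey triangle for 4 and the blue circle for 2. The counts of rightmost marks were not set beside other genes of the array chosen in the same way.

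Start-site sequences show what can be read beside these levels. Printed are the windows of 3 genes higher in Sca-1+ cells, and those of Aldh1a1 and Aldh1a7, neighbouring genes with different patterns. RefSeq windows (GRCm38.p6) run from 250 bases before to 50 after each start. Capitals in the first 3 mark GCGTG, the core bound by the aryl hydrocarbon receptor, AGGTCA, a nuclear receptor half-site, or TGACNNNGC, the antioxidant response core, on either strand.

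Cyp1b1, chr17:79715012-79715311, minus strand: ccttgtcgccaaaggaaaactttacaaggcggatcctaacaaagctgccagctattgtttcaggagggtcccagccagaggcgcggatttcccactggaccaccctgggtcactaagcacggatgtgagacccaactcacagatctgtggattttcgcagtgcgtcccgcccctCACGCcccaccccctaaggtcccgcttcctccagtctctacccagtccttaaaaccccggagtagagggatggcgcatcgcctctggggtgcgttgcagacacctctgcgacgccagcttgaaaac

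Gstm1, chr3:108017769-108018068, minus strand: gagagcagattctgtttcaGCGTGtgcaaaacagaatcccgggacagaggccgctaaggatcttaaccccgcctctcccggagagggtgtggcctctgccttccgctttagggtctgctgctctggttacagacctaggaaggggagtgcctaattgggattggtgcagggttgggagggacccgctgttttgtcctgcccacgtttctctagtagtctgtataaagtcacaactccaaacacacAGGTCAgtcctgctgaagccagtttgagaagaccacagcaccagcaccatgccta

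Aldh1a2, chr9:71215539-71215838, plus strand: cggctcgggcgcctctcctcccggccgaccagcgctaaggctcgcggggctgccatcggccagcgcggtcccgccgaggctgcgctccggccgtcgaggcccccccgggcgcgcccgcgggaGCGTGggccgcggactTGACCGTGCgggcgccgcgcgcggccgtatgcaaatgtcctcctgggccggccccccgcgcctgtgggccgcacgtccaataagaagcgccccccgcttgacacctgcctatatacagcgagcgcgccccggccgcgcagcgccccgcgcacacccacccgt

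Aldh1a1, chr19:20601718-20602017, plus strand: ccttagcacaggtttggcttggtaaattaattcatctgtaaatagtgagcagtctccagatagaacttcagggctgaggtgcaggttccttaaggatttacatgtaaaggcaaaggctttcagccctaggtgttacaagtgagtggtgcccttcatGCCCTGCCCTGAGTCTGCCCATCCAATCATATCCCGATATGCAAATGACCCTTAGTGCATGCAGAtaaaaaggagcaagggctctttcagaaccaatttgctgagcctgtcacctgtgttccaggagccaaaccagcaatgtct

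Aldh1a7, chr19:20727507-20727806, minus strand: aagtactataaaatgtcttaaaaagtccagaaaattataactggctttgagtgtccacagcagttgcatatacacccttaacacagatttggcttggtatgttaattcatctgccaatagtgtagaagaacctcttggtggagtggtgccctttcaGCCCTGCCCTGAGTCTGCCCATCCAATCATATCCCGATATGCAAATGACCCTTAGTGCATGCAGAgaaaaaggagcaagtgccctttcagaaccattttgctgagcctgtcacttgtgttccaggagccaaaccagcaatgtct

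In the first, GCGTG lies on the reverse of the printed strand 76 bases before the start. The printed window of Gstm1 has GCGTG at -231 and AGGTCA at -5. A second start window of Gstm1 overlaps it and holds the same GCGTG, there at -76, and no AGGTCA. Aldh1a2 has GCGTG at -128 and TGACNNNGC at -112. Promoters were found for 12 of the 15 genes higher in Sca-1+ cells than in both others: 6 of the 12 (50%) held GCGTG in a window, 3 (25%) AGGTCA and 1 (8.33%) TGACNNNGC. Among the 119 enzyme genes with a window the numbers were 32 (26.9%), 30 (25.2%) and 14 (11.8%), and the shares were 35.2%, 18.1% and 14% among all 27025 genes with a window. By window, 32.4%, 16.3% and 12.4% of 32851 held them, and TGACNNNGC and AGGTCA overlapped in 307. A match is a run of letters and not a shown binding site, and genes with several starts have more chances of one. In the last pair the capitals mark the longest shared run, 65 bases from position 157 of both windows. Over the last 150 bases, 142 (94.7%) were identical. Aldh1a1 has a second start window, which shares at most 8 bases in a row with that of Aldh1a7 and matches 44 of its last 150 bases (29.3%).

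Among the P450s, 24 of 73 were measured, 5 (6.85%) were higher in Sca-1+ than in double-negative cells and 1 (1.37%) lower, against 3.79% and 3.27% of all named genes, and those same 5 were lower in ALCAM+ than in Sca-1+ cells. Cyp1b1, which oxidises oestrogens and polycyclic hydrocarbons and is a known target of the aryl hydrocarbon receptor, gave signals of 64.0 in ALCAM+, 5596.5 in Sca-1+ and 71.6 in double-negative cells. It was higher by at least 74.2-fold in Sca-1+ cells than in either other population, both of which lay below the floor. A further probe set of Cyp1b1 gave 9.5, 757 and 23.0 in the same order. Cyp2f2, known as the P450 of airway club cells that activates naphthalene, gave signals of 99.9 in ALCAM+, 6322 in Sca-1+ and 219.9 in double-negative cells. Its signal in Sca-1+ cells was 28.8-fold that of double-negative and 63.3-fold that of ALCAM+ cells, with all 3 arrays above the floor. Cyp4v3, a fatty acid hydroxylase, gave signals of 191 in ALCAM+, 1349 in Sca-1+ and 175 in double-negative cells, 7.72-fold above double-negative and 7.05-fold above ALCAM+ cells. Its other probe set ran the same way, with 79.1, 406 and 37.5. Cyp27a1, the mitochondrial sterol hydroxylase that starts one route to bile acids and can hydroxylate vitamin D, gave signals of 58.9 in ALCAM+, 1108 in Sca-1+ and 186 in double-negative cells. That was 5.96-fold above double-negative and at least 14.7-fold above ALCAM+ cells, but only a log2 difference of 1.29 from double-negative cells when it was averaged with its other probe set, which lay below the floor on all 3 arrays. Cyp2d22 gave 67.8, 607 and 149, 4.07-fold above double-negative cells and at least 8.05-fold above ALCAM+ cells, the smallest difference from double-negative cells among those called higher. A second probe set of Cyp2d22 gave 92.0, 224 and 69.0. Its log2 differences were 1.57 for Sca-1+ minus double-negative and -1.28 for ALCAM+ minus Sca-1+ cells, both under 4-fold. Cyp20a1, a P450 of no settled substrate, lay above the floor everywhere with no 4-fold difference (4133, 5770.2 and 3686).

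Most P450s were not measured: 49 of 73 lay below the floor on all 3 arrays. Cyp1a1 and Cyp1a2, which share the aryl hydrocarbon receptor with Cyp1b1, gave 32.9, 25.9 and 32.3 and 39.1, 4.2 and 24.1. Cyp1b1 was thus the only measured gene of the 3 Cyp1 genes. The list of receptors and electron partners of the P450s held 13 measured of 22 genes. Of the 22, 1 (4.55%) was higher in Sca-1+ than in double-negative cells, close to the 3.79% of all named genes. The same gene was lower in ALCAM+ than in Sca-1+ cells, where 4.07% of all named genes were. Ahr, the aryl hydrocarbon receptor itself, was the only one apart, with 14.6 in ALCAM+, 1176 in Sca-1+ and 39.7 in double-negative cells, higher by at least 15.6-fold in Sca-1+ cells than in either other population. Averaged over its probe sets the log2 difference from double-negative cells was 1.86, under 4-fold. Sult1a1, a sulphotransferase, gave 38.4, 294.5 and 54.8, at least 3.91-fold above both other populations, which lay below the floor. Pon2, a lactonase, gave 952, 3218 and 1480.2, inside 4-fold. Cyb5a, cytochrome b5, which passes electrons to P450s, gave 2983, 10474 and 3143, and was 3.33-fold higher in Sca-1+ than in double-negative cells, inside the 4-fold limit. The next genes of the list were singled out after their values were seen. Ahrr, the repressor of that receptor, was below the floor on all 3 arrays (27.8, 4.4 and 30.0). Tiparp, a further receptor target, gave 16405, 8687 and 10866, with Sca-1+ the lowest. Nr1i2, Nr1i3 and Hnf4a, regulators of hepatic drug metabolism, lay below the floor on all 3 arrays.

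Flavin monooxygenases, which oxidise nitrogen and sulphur atoms of drugs, were measured for 3 of 4 genes. Fmo1 gave signals of 101 in ALCAM+, 1948 in Sca-1+ and 125 in double-negative cells, 15.6-fold above double-negative and 19.2-fold above ALCAM+ cells. Fmo2, its neighbour in RefSeq order, gave signals of 7.3 in ALCAM+, 1687 in Sca-1+ and 23.2 in double-negative cells, and was higher by at least 22.4-fold in Sca-1+ cells than in either. The 3 other probe sets of Fmo2 above the floor ran the same way by less, with log2 differences from double-negative cells of 0.75, 1.54 and 2.26, and the mean over all its probe sets, those below the floor included, was 1.81, under 4-fold. Fmo5 was highest in Sca-1+ cells without reaching 4-fold (92.6, 286 and 128), and Fmo4 was below the floor everywhere (42.3, 32.9 and 4.0).

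**Figure D3:**
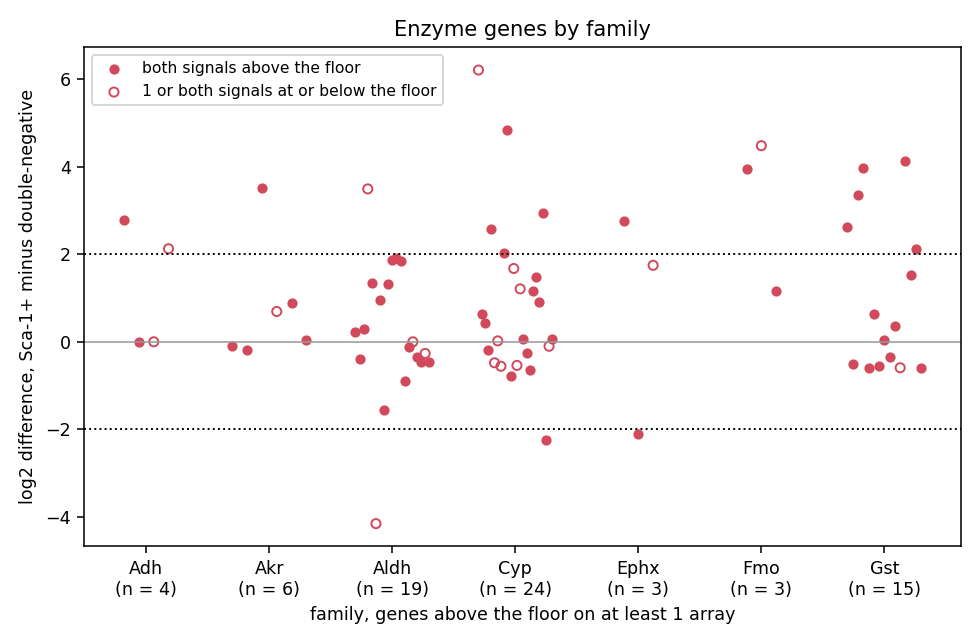
Log2 difference of Sca-1+ minus double-negative cells (vertical axis) for each of the 74 measured enzyme genes, by family (horizontal axis; n counts genes); filled points have both signals above the floor and open points have 1 or both at or below it. Dotted lines mark 4-fold, and 17 points lie above the upper line and 3 below the lower one.

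Glutathione S-transferases, which conjugate electrophiles to glutathione, were measured for 15 of 20 genes, with 5 higher (25%, against 3.79% of all named genes) and 0 lower in Sca-1+ than in double-negative cells. Gstm1, of the mu class, gave signals of 584 in ALCAM+, 7401 in Sca-1+ and 721 in double-negative cells, 10.3-fold above double-negative and 12.7-fold above ALCAM+ cells. Its 3 other probe sets above the floor gave log2 differences from double-negative cells of 3.04, 2.999 and 3.91. Gstm2, adjacent to Gstm1, had another pattern: at 611 in ALCAM+, 1659 in Sca-1+ and 105 in double-negative cells, it was 15.8-fold higher in Sca-1+ and 5.83-fold higher in ALCAM+ than in double-negative cells, while the first 2 differed by 2.71-fold. The other mu-class genes Gstm4 (331.5, 441 and 284) and Gstm5 (3017, 3005 and 4396) showed no 4-fold difference, and Gstm3 (57.7, 89.4 and 134) and Gstm7 (47.4, 90.3 and 87.9), below the floor in ALCAM+ cells, were not called. The mu-class copies are similar in sequence, and their probes may share signal.

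The theta-class neighbours Gstt1 and Gstt3 were both higher in Sca-1+ cells. Gstt1 gave signals of 118 in ALCAM+, 3162.5 in Sca-1+ and 181 in double-negative cells, 17.5-fold above double-negative and 26.8-fold above ALCAM+ cells. Gstt3 gave 109.6, 1495.5 and 342, 4.37-fold and 13.6-fold above them. Gstt2, next in the cluster, gave 281, 438 and 153, and Gstt4, between them, lay below the floor (7.5, 1.7 and 47.3). Gsta4, which clears the lipid peroxidation product hydroxynonenal, gave 105, 717 and 117, 6.13-fold above double-negative and 6.84-fold above ALCAM+ cells.

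Omega-class Gsto1, which reduces dehydroascorbate, stood apart by its low signal in ALCAM+ cells. It gave signals of 286 in ALCAM+, 1411 in Sca-1+ and 1804 in double-negative cells, 6.30-fold lower in ALCAM+ than in double-negative and 4.93-fold lower than in Sca-1+ cells. Its second probe set gave 320, 935 and 1428, and with that probe set the difference of ALCAM+ from Sca-1+ cells was -1.55 on the log2 scale, under 4-fold. Gstp1, the pi-class enzyme, lay within 4-fold on all arrays (10826, 11173 and 8632), as did Gstk1 (806, 864 and 1221) and Gstz1 (682, 317 and 480.1).

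Outside the families, 22 of 24 glutathione and NRF2-target genes were measured (NRF2 is the transcription factor of the antioxidant response). Against double-negative cells, 1 (4.17%) was higher and 1 (4.17%) lower in Sca-1+ cells, near the 3.79% and 3.27% of all named genes. In ALCAM+ cells, 1 (4.17%) was lower than in double-negative and 2 (8.33%) lower than in Sca-1+ cells, beside 1.86% and 4.07%. Microsomal Mgst1, a membrane glutathione transferase, gave signals of 300.0 in ALCAM+, 10880.2 in Sca-1+ and 800.1 in double-negative cells, 13.6-fold above double-negative and 36.3-fold above ALCAM+ cells; its log2 difference from double-negative cells was 1.88 when probe sets were averaged. Mgst2 ran the other way with 208 in ALCAM+, 75.6 in Sca-1+ and 1018 in double-negative cells, 13.5-fold lower in Sca-1+ and 4.89-fold lower in ALCAM+ than in double-negative cells. Abcc1, which exports glutathione conjugates, gave 672, 3694 and 1104, 5.50-fold lower in ALCAM+ than in Sca-1+ cells, and a log2 difference of -1.63 over averaged probe sets. No other gene of the list was 4-fold apart: Gclc, the catalytic subunit of glutathione synthesis, gave 465, 1430.4 and 1253, and, picked after their values were seen as usual reporters of NRF2, Nqo1 gave 219.6, 133 and 221.5 and Srxn1 2482.5, 1598 and 3923, with Sca-1+ the lowest for both.

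Of the retinoid-handling genes, Adh1, an alcohol dehydrogenase that oxidises retinol, gave signals of 1091 in ALCAM+, 3496 in Sca-1+ and 504 in double-negative cells. It was 6.93-fold higher in Sca-1+ than in double-negative cells, 3.21-fold higher than in ALCAM+ cells, and 2.16-fold higher in ALCAM+ than in double-negative cells. Its neighbour Adh7 gave 67.6, 329 and 44.1, higher by at least 4.37-fold in Sca-1+ cells than in either. A second probe set of Adh7 gave 3.9, 124 and 41.1. Adh5, which oxidises the glutathione adduct of formaldehyde, showed no 4-fold difference (3113, 4759.9 and 4781.5).

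The Aldh1a genes were each highest in a different set of populations. Aldh1a2, the main source of retinoic acid in the embryo, gave signals of 9.1 in ALCAM+, 851 in Sca-1+ and 60.0 in double-negative cells and was higher by at least 11.3-fold in Sca-1+ cells than in either other. Aldh1a3, which also makes retinoic acid, gave signals of 6991 in ALCAM+, 1548 in Sca-1+ and 605 in double-negative cells. It was 11.5-fold higher in ALCAM+ than in double-negative and 4.52-fold higher than in Sca-1+ cells, the latter a log2 difference of 2.18 that was 1.38 on either spike-in scale. The 2 other probe sets of Aldh1a3 gave 658, 132 and 50.9, and 1206, 173 and 131.5, so ALCAM+ was the brightest by all 3. Aldh1a1, which marks stem and progenitor cells in many tissues, gave signals of 101 in ALCAM+, 1824 in Sca-1+ and 1488 in double-negative cells. Here ALCAM+ cells were the ones apart, 14.8-fold below double-negative and 18.1-fold below Sca-1+ cells, which differed by 1.23-fold. Aldh1a7, the rodent copy of Aldh1a1, gave signals of 34.3 in ALCAM+, 26.2 in Sca-1+ and 1346 in double-negative cells, at least 17.9-fold higher in double-negative cells than in either other. In Sca-1+ cells the probe set of Aldh1a7 was thus below the floor on the array where that of Aldh1a1 was bright, although the genes lie next to each other and share the run printed above at 1 of the 2 starts of Aldh1a1.

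Of the genes of retinoic acid breakdown, Cyp26b1 gave 258, 546 and 627, inside 4-fold. Cyp26a1 gave 21.3, 115 and 85.6, with ALCAM+ below the floor, so that its folds of at least 1.14 and 1.53 below the others are lower bounds, and it was called lower in ALCAM+ than in both with the floor at the 25th percentile. Cyp26c1 was not analysed here. Among other retinoid pathway genes, 16 of 20 were measured and only Crabp2 was apart. That is 5% of the 20 in each of its 2 comparisons. Of all named genes, 3.79% were higher in Sca-1+ than in double-negative cells and 4.07% lower in ALCAM+ than in Sca-1+ cells. Crabp2, the carrier that brings retinoic acid to its nuclear receptors, gave signals of 179 in ALCAM+, 1291 in Sca-1+ and 249.7 in double-negative cells, 5.17-fold above double-negative and 7.20-fold above ALCAM+ cells. Dhrs3, a retinal reductase, gave 778, 2138 and 938 and Rdh11, a retinol dehydrogenase, 738, 578 and 1607, both inside 4-fold. Rxrg, a retinoid X receptor, gave 83.1, 249 and 36.3, with Sca-1+ at least 3.3-fold above double-negative cells. Chosen after their values were seen, Rarg gave 1849, 1698 and 2021.5 and Rarb, a retinoic acid target, 48.3, 117 and 57.2.

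Other aldehyde dehydrogenases clear lipid aldehydes or serve amino acid and folate metabolism, and 19 of the 20 Aldh genes were measured. Of the 20, 1 (5%) was higher and 1 (5%) lower in Sca-1+ than in double-negative cells, near the 3.79% and 3.27% of all named genes. Against Sca-1+ cells, 2 (10%) were higher and 4 (20%) lower in ALCAM+ cells, beside 2.77% and 4.07%. Aldh3a1 gave signals of 191 in ALCAM+, 1924 in Sca-1+ and 529 in double-negative cells, 10.1-fold lower in ALCAM+ than in Sca-1+ cells and 3.63-fold lower in double-negative cells. Aldh3a2, its neighbour and the fatty aldehyde dehydrogenase, gave 337, 1141 and 301, and Aldh3b1 81.4, 419.9 and 117, which was 5.16-fold lower in ALCAM+ than in Sca-1+ cells. These 3 Aldh3 genes were the ones nearest under the 4-fold limit for Sca-1+ against double-negative cells, at log2 differences of 1.86, 1.92 and 1.85. Just over it lay Cyp2d22 at 2.02, Adh7 at 2.13 and, in the other direction, Ephx2 at -2.11.

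Aldh1l2, the mitochondrial formyltetrahydrofolate dehydrogenase, had its highest signal in ALCAM+ and its lowest in Sca-1+ cells, with 2512 in ALCAM+, 444 in Sca-1+ and 1299.6 in double-negative cells. It was 5.66-fold higher in ALCAM+ and 2.93-fold higher in double-negative than in Sca-1+ cells, and the former log2 difference of 2.50 was 1.70 on the poly-A scale. Aldh2, the mitochondrial enzyme that oxidises acetaldehyde, gave 3333, 7368 and 2950.4, 2.50-fold higher in Sca-1+ than in double-negative cells. Aldh18a1, of proline synthesis, lay within 4-fold (5368, 4761 and 6244).

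Aldo-keto reductases were measured for 6 of 15 genes and 1 of them was apart. That is 6.67% of the 15 higher in Sca-1+ than in double-negative cells, beside 3.79% of all named genes. The same gene was lower in ALCAM+ than in Sca-1+ cells, where 4.07% of all named genes were. Akr1b8, an aldose reductase relative that reduces lipid aldehydes, gave signals of 337 in ALCAM+, 2796 in Sca-1+ and 245 in double-negative cells, 11.4-fold above double-negative and 8.29-fold above ALCAM+ cells. Akr1b10, next to it, gave 573, 305 and 347, with no 4-fold difference and Sca-1+ the lowest. The others with the highest mean signals, Akr1a1 (40336, 31110.0 and 33411) and Akr7a5 (1288, 1566 and 1534), differed by less than 4-fold. Akr1c14, which reduces steroid ketones, gave 58.4, 122 and 29.8.

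Epoxide hydrolases split into opposite patterns. Ephx1, the microsomal enzyme that opens epoxides of foreign compounds, gave signals of 2379.7 in ALCAM+, 11732 in Sca-1+ and 1733 in double-negative cells, 6.77-fold above double-negative and 4.93-fold above ALCAM+ cells. Ephx2, the soluble enzyme that acts on epoxides of fatty acids, gave signals of 532 in ALCAM+, 261 in Sca-1+ and 1129 in double-negative cells, 4.32-fold lower in Sca-1+ than in double-negative cells and 2.04-fold lower than in ALCAM+ cells. The log2 difference of Ephx2 from double-negative cells was -2.11, and -1.80 on the poly-A scale, where it no longer reached 4-fold. Ephx4 gave 237, 253.5 and 47.0, with double-negative cells below the floor and ALCAM+ and Sca-1+ at least 3.14-fold and 3.36-fold above them; with the floor at the 25th percentile both differences were called.

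Cyp51 was the P450 called lower in Sca-1+ cells. The gene, the lanosterol demethylase of cholesterol synthesis, gave signals of 1642 in ALCAM+, 541 in Sca-1+ and 2549.9 in double-negative cells, 4.72-fold lower in Sca-1+ than in double-negative cells and 3.04-fold lower than in ALCAM+ cells. Its 2 other probe sets gave 1693, 412.5 and 2344, and 153, 40.1 and 104, with Sca-1+ lowest in both, and the log2 difference of -2.24 was -1.93 on the poly-A scale and -1.74 over the mean of probe sets. Outside the families 21 of 24 steroid and sterol genes were measured, with 3 higher and 3 lower in Sca-1+ than in double-negative cells (12.5% each, against 3.79% and 3.27% of all named genes). The lower ones were Vdr, the vitamin D receptor, Idi1 and Fdft1. Idi1, an isomerase early in sterol synthesis, gave 5071, 1447 and 6272, 4.33-fold lower, and Fdft1, squalene synthase, 5276, 1562 and 6473, 4.14-fold lower. On the poly-A scale their log2 differences were -1.81 and -1.74, under 4-fold, and that of Fdft1 was -1.01 over the mean of its probe sets and -1.97 without shared probe sets. Chosen after their values were seen, Hsd17b7, Lss, Sqle, Dhcr7 and Hmgcs1, further genes of sterol synthesis, did not reach 4-fold; their signals in double-negative cells were 3.96, 3.89, 3.77, 3.58 and 2.44 times those in Sca-1+ cells.

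The set of vitamin D enzymes held Cyp27a1, described above, and 3 others. Cyp2r1 and Cyp27b1, which activate vitamin D, gave 112.5, 35.6 and 109.6 and 48.9, 46.3 and 105, and Cyp24a1, which inactivates it, lay below the floor everywhere (19.6, 27.0 and 36.3). Of the 4 genes of that set, Cyp27a1 was the one called 4-fold apart. Vdr gave signals of 2627 in ALCAM+, 142 in Sca-1+ and 893 in double-negative cells, 6.30-fold lower in Sca-1+ than in double-negative and 18.5-fold lower than in ALCAM+ cells.

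No gene of steroid hormone synthesis among the P450s was measured. Cyp11a1 (59.8, 6.0 and 14.5), Cyp17a1 (6.0, 9.4 and 19.4), Cyp21a1 (9.0, 65.8 and 34.0), Cyp11b1 (8.9, 31.7 and 27.0) and Cyp11b2 (26.0, 21.3 and 52.4) lay below the floor, Akr1c18, which inactivates progesterone, did too (9.4, 30.2 and 12.8), and Cyp19a1 was not analysed here. Enzymes that modify ready-made steroids and sterols were measured. Cyp7b1, the oxysterol hydroxylase, gave 42.1, 267 and 257, at least 3.41-fold lower in ALCAM+ than in double-negative cells. Hsd3b7, of bile acid synthesis from sterols, gave 1459.6, 8760.3 and 1662, 5.27-fold above double-negative and 6.00-fold above ALCAM+ cells. Hsd11b1 and Hsd11b2, which activate and inactivate glucocorticoids, gave 75.8, 518 and 133 and 57.7, 679.9 and 114. Hsd11b2 was 5.97-fold above double-negative and at least 9.02-fold above ALCAM+ cells, and Hsd11b1 was 6.83-fold lower in ALCAM+ than in Sca-1+ cells. Hsd17b11, a steroid and lipid dehydrogenase, and Esr1, the oestrogen receptor, were lower in ALCAM+ than in Sca-1+ cells by 4.14-fold and 5.48-fold, the former also 4.02-fold lower in double-negative cells. With probe sets averaged, the log2 differences of ALCAM+ from Sca-1+ cells were -0.63 for Hsd17b11 and -1.36 for Esr1, under 4-fold, and that of Hsd17b11 in Sca-1+ from double-negative cells was 0.71.

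**Figure D4:**
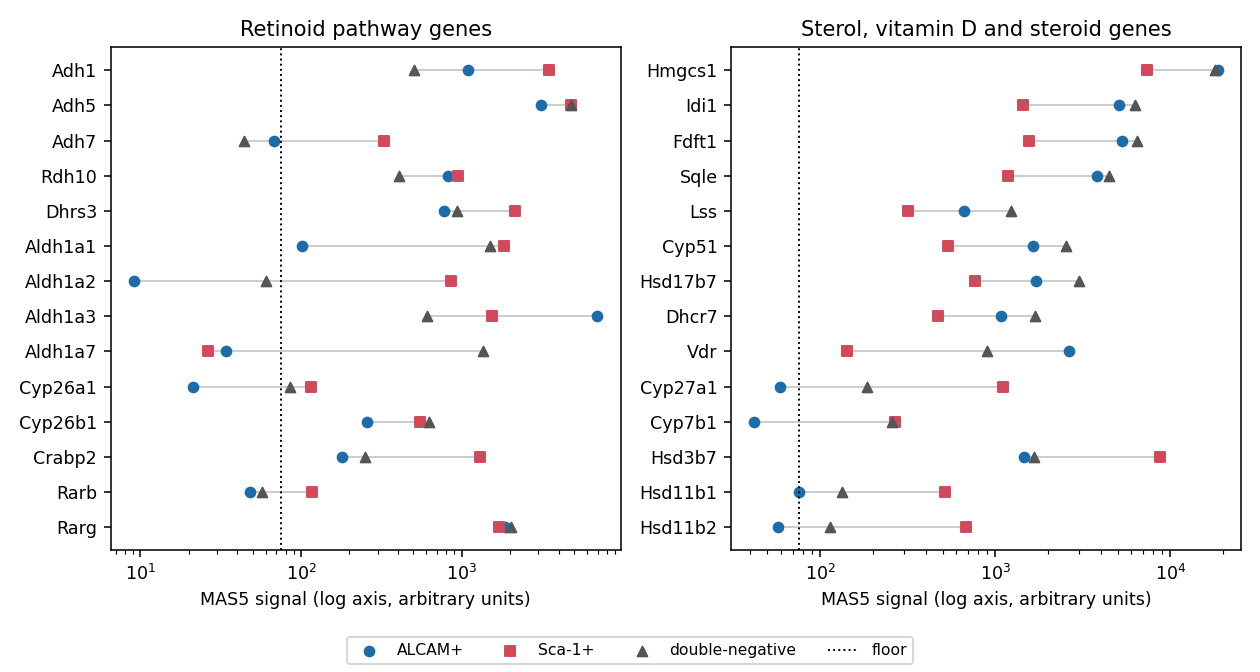
Signals (horizontal log axis, arbitrary units) in ALCAM+ (blue circles), Sca-1+ (red squares) and double-negative cells (grey triangles), 1 array each, for retinoid pathway genes (left) and sterol, vitamin D and steroid genes (right), with the floor of 75.4 as a dotted line. The genes drawn were chosen with their values known, and Aldh1a7 is drawn as the copy of Aldh1a1. Aldh1a2, Aldh1a3 and Aldh1a7 are each brightest in a different population, and the red square is the lowest for the sterol synthesis genes from Hmgcs1 to Dhcr7, of which Cyp51, Idi1 and Fdft1 reach 4-fold from double-negative cells.

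The Ugt family, which adds glucuronic acid or other sugars, had 0 of 11 genes above the floor, with a highest signal of 56.9 (Ugt3a1, 35.1, 6.4 and 56.9). The next by mean signal were Ugt2b36 (39.5, 18.7 and 30.4) and Ugt2b38 (16.5, 12.1 and 55.3). These are genes with a probe set of their own, and 18 further symbols of the families, found only on probe sets assigned to several genes, are not among the 154. Those symbols include the Ugt1a genes, whose shared probe sets gave up to 581.3 in Sca-1+ cells and are described below.

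For genes called apart, further probe sets above the floor were compared in the same comparison. Of the 17 genes higher in Sca-1+ than in double-negative cells, 6 had such probe sets, 10 in all, of which 10 had the same direction and 8 reached 2-fold. For the 19 genes lower in ALCAM+ than in Sca-1+ cells, 7 had 11 others, all 11 in the same direction and 9 at 2-fold or more. As a measure of how far probe sets of a gene disagree, only probe sets above the floor on every array were taken. The 2 brightest of these were compared in 4152 genes. The SD between their log2 differences was 0.67 for Sca-1+ minus double-negative and 0.54 for ALCAM+ minus double-negative cells. It was 0.745 for ALCAM+ minus Sca-1+ cells, and 1.23%, 0.409% and 2.1% of these genes differed by 4-fold or more. Genes without such probe sets, among them Fmo2, Cyp1b1 and Adh7, are not covered by that SD. That spread covers probes and not animals or sorts.

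**Figure D5:**
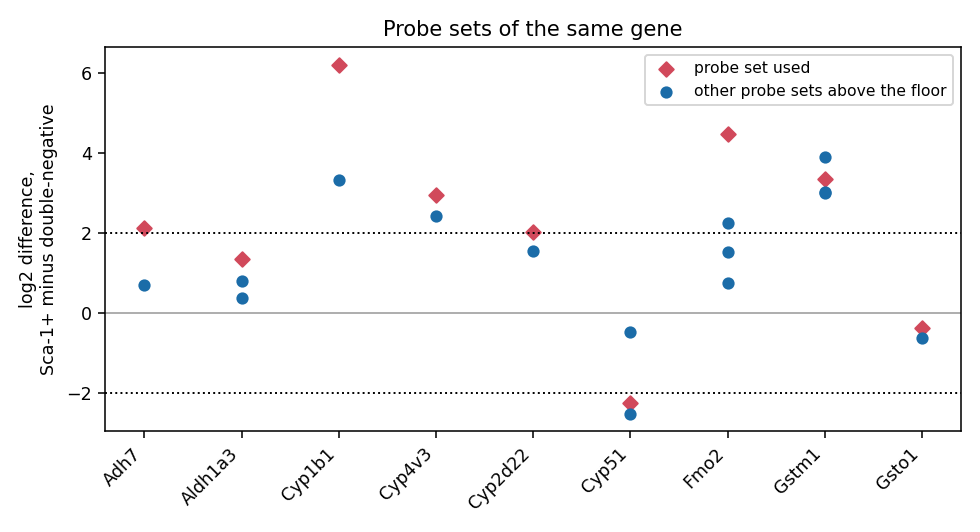
Log2 difference of Sca-1+ minus double-negative cells (vertical axis) for the probe sets above the floor of 9 enzyme genes that were 4-fold apart and had more than 1 such probe set; red diamonds are the probe sets used and blue circles the others. Dotted lines mark 4-fold. All probe sets of Gstm1 lie near or above 3, and those of Fmo2 spread from 0.75 to 4.48.

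Of the 58 pairs of enzyme genes adjacent in RefSeq order, 29 had neither gene measured, 18 had 1 and 11 had both. Among the 11, both genes were higher in Sca-1+ than in double-negative cells for Fmo1 and Fmo2, Gstt3 and Gstt1, Adh7 and Adh1, and Gstm2 and Gstm1. The pairs Akr1b8 and Akr1b10, Aldh1a1 and Aldh1a7, Gstm3 and Gstm2, and Gstm1 and Gstm4 had 1 gene apart in that comparison. The other pairs, Aldh3a1 and Aldh3a2, Gstm5 and Gstm7, and Cyp2j6 and Cyp2j9, had none. The same counts were not made over all adjacent genes of the array. Gstm1 and Gstm2 each stand in more than 1 pair, and the probe set used for Gstm1 is of the kind marked as cross-hybridising.

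The 48 measured genes that were not called 4-fold apart anywhere had, with signals raised to the floor, log2 differences of -0.91 to 1.92 for Sca-1+ minus double-negative cells (median 0.00). For ALCAM+ minus Sca-1+ cells they ran from -1.82 to 1.11 (median -0.25), and for ALCAM+ minus double-negative cells from -1.77 to 1.65 (median -0.14). Nearest to the limit in this last comparison were Cyp7b1 at -1.77 and Ephx4 at 1.65 outside it, and Gstm2 at 2.54 and Gsto1 at -2.66 inside it.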

How the data were processed

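The deposited values are signal intensities on a linear scale for 45101 probe sets on each of 3 arrays, which the authors computed with the MAS5 software, per the submitters' processing notes; the version and settings used are not given in the sources used here. Total RNA was amplified and labelled with biotin before hybridisation, per the labels' protocols, which favours the 3' ends of transcripts. It gives 1 signal from all probes of a set and multiplies each array by a single factor, so differences in RNA per cell are not seen.

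Groups came from the sample titles, with 1 array each. The 64 control probe sets entered no gene result. Of 45037 others, 34945 had 1 gene symbol, 932 several and 9160 none in the platform's annotation table, which left 18193 genes. All 154 member identifiers were found in RefSeq (GRCm38.p6), which changed 0 symbols; 46 members had several probe sets, and 11 were represented by a probe set that the maker marks as shared or cross-hybridising. Each gene took the values of whichever of its probe sets had the highest mean over the arrays. Signals were raised to a floor of 75.4 and turned to log2, and a difference of at least 2 (4-fold) was counted. With 1 array per population no test was run, no p-value is given, and precision is limited by that number.

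Named genes were those members at least 4-fold apart with a signal of at least 4 times the floor, up to 3 per family with the highest mean signal, fixed retinoid, vitamin D and steroid sets, and up to 4 genes of each companion list with the largest differences; other genes, such as neighbours and relatives of these, were chosen after their values were seen. The members and all lists were chosen with earlier results of these data known. Alternatives were quantile normalization, scaling on poly-A or hybridization controls, other floors, the mean over probe sets, leaving out shared probe sets, and 2-fold. Counting was tested on simulated data, with changes larger than 4-fold in genes well above the floor. Changes near 4-fold, and genes at the floor before a change, were not tested that way. Motifs were searched in RefSeq promoter windows, which 119 members had. Python 3.11.15, pandas 2.3.3, numpy 2.4.6, scipy 1.17.1 and matplotlib 3.10.9 were used.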

Additional observations from a re-analysis of the deposited data

Results flagged for a closer look

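Some signal lay on probe sets outside the 154 genes. Of 12 probe sets assigned to several gene symbols that include a symbol of these families, 4 carry symbols of UDP-glucuronosyltransferases. One had a signal of 33.0 in ALCAM+, 581.3 in Sca-1+ and 88.5 in double-negative cells, and another 70.9, 494.4 and 39.8 in the same order. A further one gave 43.2, 168 and 42.8. Each of these 3 is assigned to the same 8 symbols at once, all of them Ugt1a genes. The signal can thus be placed in the Ugt1a group but in no single gene of it. The fourth lay below the floor on all 3 arrays (6.2, 3.3 and 27.6). The first 3 were looked at again because they lie above the floor in Sca-1+ cells while all 11 Ugt genes with a probe set of their own lie below it on all 3 arrays.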

How the results depend on the processing

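No paired analysis was possible because each population has 1 array, and for the same reason no replicate was left out. No call changed direction under the alternatives run; shares of all named genes stand in brackets.

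Sca-1+ against double-negative cells gave 17 higher genes (3.79%), 29 at 2-fold (10.4%) and 8 with the floor at the 75th percentile of 433.9 (1.9%). It gave 3 lower genes (3.27%), 1 with that floor (1.23%) and 1 on the hybridization or poly-A scale (2.82%). ALCAM+ against Sca-1+ cells gave 19 lower genes (4.07%), 32 at 2-fold (11%) and 9 with the high floor (1.96%), and 2 higher genes (2.77%), 6 at 2-fold (7.78%) and 0 on either spike-in scale (1.58%), where Aldh1a3 and Aldh1l2 fell short. ALCAM+ against double-negative cells gave 2 higher genes (1.4%), 4 at 2-fold (4.64%) and 1 with the high floor (0.671%), and 3 lower genes (1.86%), 12 at 2-fold (7.36%), 6 with the floor at the 25th percentile of 21.1 (3.21%) and 1 with the high floor (0.473%). The 15 genes (2.8%) higher in Sca-1+ cells than in both others became 25 at 2-fold and 7 with the high floor, counts added after the data were seen. For the counts of 25 and 7, shares of all named genes were not computed. Of the 17, 8 were called under all 7 alternatives that keep 4-fold (Adh1, Akr1b8, Cyp1b1, Cyp2f2, Ephx1, Fmo1, Gstm1 and Gstt1), and of the 19, 9 were. Averaging probe sets cost Adh7, Cyp27a1, Cyp2d22 and Fmo2 their 4-fold difference of Sca-1+ from double-negative cells, leaving 13. The other probe sets of these genes had smaller differences or lay below the floor on all 3 arrays. Why probe sets of a gene differ was not tested.

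Medians of the measured enzyme genes moved by over 0.1 as follows. Sca-1+ minus double-negative, 0.33, was 0.52 after quantile normalization, 0.60 on the poly-A and 0.59 on the hybridization scale, and 0.015 with the low floor. ALCAM+ minus Sca-1+, -0.63, was -1.21 and -1.20 on those scales, -0.19 with the low and -0.45 with the high floor, and -0.47 over the mean of probe sets. ALCAM+ minus double-negative, -0.20, was -0.45 and -0.46 on those scales, 0 with the high floor and -0.06 without shared probe sets. Spike-in scaling moved the median of all measured genes as well, to 0.25 (poly-A) for Sca-1+ minus double-negative and -0.75 for ALCAM+ minus Sca-1+. For ALCAM+ minus double-negative it was -0.45 (poly-A) and -0.46 (hybridization), as for the enzyme genes. The geometric mean of the poly-A controls was 262 in ALCAM+, 151 in Sca-1+ and 186 in double-negative cells.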
